A study of Mus musculus with 9 samples.

Results

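The 10 genes described here encode the enzymes and helpers that hydroxylate, fold, trim and crosslink collagen. They are the alpha subunits of prolyl 4-hydroxylase (P4ha1 and P4ha2), the lysyl hydroxylases (Plod1 and Plod2), the lysyl oxidases (Lox, Loxl1, Loxl2 and Loxl3), the collagen chaperone Serpinh1 and the procollagen proteinase Bmp1. They were taken by symbol from a table of 21989 gene symbols, and all 10 were found. Levels are given in FPKM, fragment counts scaled by gene length and library total. All 10 genes were among the 11380 that reached an FPKM of 1 in 3 or more libraries and were tested. No member was listed at 0 in any library.

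RNA of the heart was sequenced after poly-A selection in 9 male C57BL/6J mice, 3 per group. The LD mice had the operation that the labels call TAC, usually read as transverse aortic constriction, and received Lingguizhugan decoction, a Chinese herbal preparation. The TAC mice had the same operation and received distilled water, and the sham mice had a sham operation and received distilled water. All mice were 18 to 20 weeks old by the labels, bought at 8 to 10 weeks. The labels give no dose of the decoction and no length of treatment. By its title, the study asks how the decoction acts in heart failure.

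A collagen chain is modified inside the endoplasmic reticulum before it becomes a fibre. Prolyl 4-hydroxylases make the hydroxyproline that holds the triple helix together, lysyl hydroxylases prepare the lysines that later carry crosslinks, and the chaperone Serpinh1 (HSP47) binds the folded helix. After secretion, Bmp1 removes the C-terminal propeptide so that fibrils can form, and lysyl oxidases oxidise lysines of collagen and elastin into the aldehydes from which crosslinks arise. In the heart these proteins are known mainly from fibroblasts and from scar and interstitial fibrosis, where crosslinks make the matrix stiff.

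The libraries were of heart muscle by their defining genes. Myh6, the alpha myosin heavy chain, averaged 4110 ± 1206 FPKM in LD, 2603 ± 334 in TAC and 3766 ± 275 in sham (SD, n = 3), and Tnnt2 and Actc1 had at least 10100 and 962 FPKM in every library. Because whole heart tissue was sequenced, fewer cells of a type and less RNA per cell cannot be told apart. Library totals, recovered from the FPKM steps, lay between 7.41 and 18.1 M counts, and the 10 genes had from 69 counts (Lox in TAC replicate 1) to 5270 counts (Serpinh1 in sham replicate 1). TAC replicate 3 and LD replicate 3 stood apart at -51.0 and 48.3 on the first principal component, against -10.4 to 17.1 for the other 7 libraries. In TAC replicates 2 and 3 and sham replicates 1 and 3, 86.1% to 91.7% of the recovered counts of 1606 low genes were even numbers, against 47.8% to 51.3% in the other 5 libraries. What differed in the counting of those 4 libraries is not given in the sources used here. All 3 LD libraries are of the second kind, so LD can be compared only within the libraries of even and odd counts (3 LD, 1 TAC, 1 sham), and TAC with sham also within those of mostly even counts (2 and 2). The values within a kind are given beside some of the results.

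On the FPKM scale, which allows for gene length, Serpinh1 had the highest mean level of the 10 genes at 70.7 over the 9 libraries (46.4 to 119). P4ha2 followed at 30.6, Bmp1 at 23.4, Loxl1 at 20.5, P4ha1 at 16.7, Plod2 at 11.1, Plod1 at 5.71, Loxl3 at 4.71, Lox at 3.63 and Loxl2 at 2.41. Serpinh1 was above P4ha2 in every library, whose own range was 20.7 to 42.0, and from P4ha2 downwards the ranges of all neighbours in this order overlapped. Lox varied most between libraries, with a highest level 14.4 times its lowest, against 1.95 to 4.78 times for the other 9 genes. The gene lengths behind the values were recovered with the counts. For P4ha2 the length was 2349 bases, against 6239 annotated exon bases. It was 5519 against 8870 for Bmp1, 3719 against 5392 for Plod2 and 4173 against 4114 for P4ha1. The order of the genes and the family shares below therefore depend on the lengths used.

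**Figure D1:**
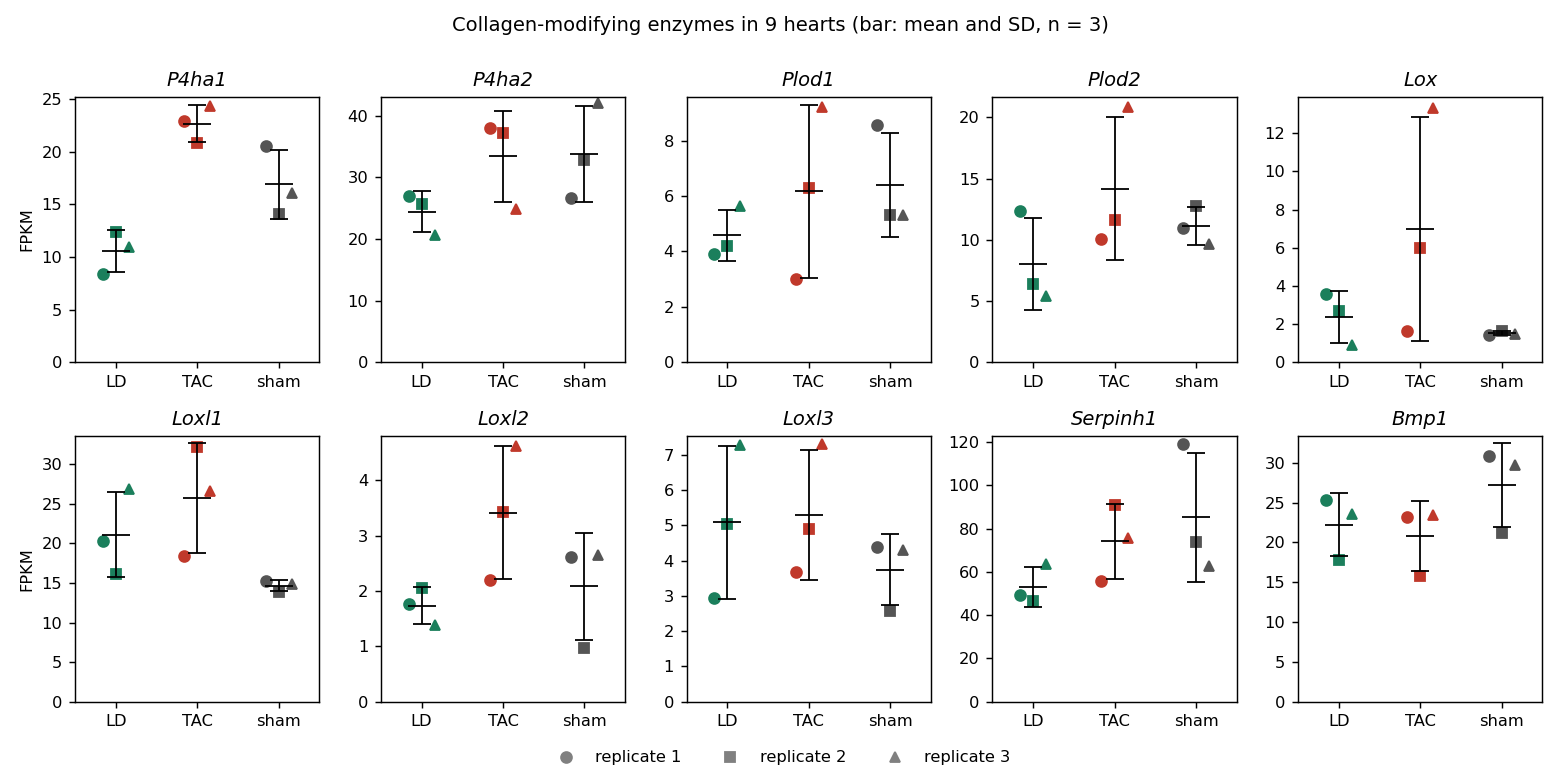
FPKM (vertical axes, each starting at 0) of the 10 genes in the LD, TAC and sham hearts, with circles, squares and triangles for replicates 1, 2 and 3 and bars for the mean and SD (n = 3 each). P4ha1 is lowest in the 3 LD hearts (8.44 to 12.4) and highest in the 3 TAC hearts (20.8 to 24.3), while Lox spreads from 1.66 to 13.3 among the TAC hearts.

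LD against TAC sets operated mice that received the decoction against operated mice that received water. P4ha1 stood in LD at 46.8% of its TAC level, with no overlap between the groups, and 9 of the 10 genes had lower mean log2 values in LD (8 after median-of-ratios scaling, where Loxl3 was at 0.05, and 10 after rescaling to equal sums, where Bmp1 was at -0.01). The median log2 difference of the 10 was -0.44, beside -0.10 for all tested genes, and -0.30 beside 0.01 after median-of-ratios scaling. Differences are of mean log2(FPKM + 1), a scale that understates the change of low genes. No member passed limma's moderated test at a Benjamini-Hochberg adjusted p under 0.05, nor did any of the 11380 genes (0.0%). Without adjustment, 2 members (P4ha1 and Plod2) had a p under 0.05 and were lower, as were 6.31% of all genes, and 0 members were higher, where 2.51% of genes were. P4ha1 and Loxl2 were lower with no overlap between the groups, as were 8.14% of genes, and 0 members were higher with no overlap, against 3.73% of genes. Limma's voom on the recovered counts called no member and no other gene either. With a term for the 2 kinds of library the median of the members was -0.18, and over the 5 libraries with even and odd counts (3 LD, 1 TAC, 1 sham) it was -0.08.

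TAC against sham sets operated against sham-operated mice, both on water. The lysyl oxidases Lox and Loxl1 and the prolyl hydroxylase P4ha1 were higher in all 3 TAC hearts than in any sham heart, and 6 of the 10 genes had higher means in TAC. The median log2 difference was 0.33, beside -0.0001 for all tested genes. It ranged from 0.17 (TAC replicate 3 left out) to 0.43 (TAC replicate 1 left out) when single libraries were dropped, and was 0.34 within the libraries of mostly even counts. The separation of the groups ended for Lox after median-of-ratios scaling and for P4ha1 after rescaling to equal sums, and held for Loxl1 under both. No member and no other gene (0.0%) passed limma's adjusted threshold. Lox and Loxl1 had an unadjusted p under 0.05 and were higher, as were 2.85% of all genes, and 0 members were lower, where 2.58% of genes were. The 3 members without overlap were higher, as were 5.22% of genes, and 0 members were lower without overlap, against 4.62% of genes. Voom called 4 genes, none of them a member.

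Each pair of these comparisons shares 1 group, so their values are only set side by side. In LD against sham, P4ha1 and Serpinh1 were lower by unadjusted p, against 3.59% of genes, and 0 members were higher, against 1.52%. The groups did not overlap for P4ha1, lower in LD like 8.76% of genes, and for Loxl1, higher in LD like 4.47% of genes, although Loxl1 overlapped after rescaling to equal sums. The median of the 10 differences was -0.34, beside -0.11 for all tested genes, and no gene (0.0%) passed the adjusted threshold in limma, where voom called 3 genes and no member. Over all 3 groups, P4ha1, Lox and Loxl1 had an unadjusted p under 0.05 in the moderated F test, as did 6.76% of genes, and none passed after adjustment (0.0% of genes). The adjusted p of this F test was 0.471 for P4ha1 and 0.730 for Lox and Loxl1.

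**Figure D2:**
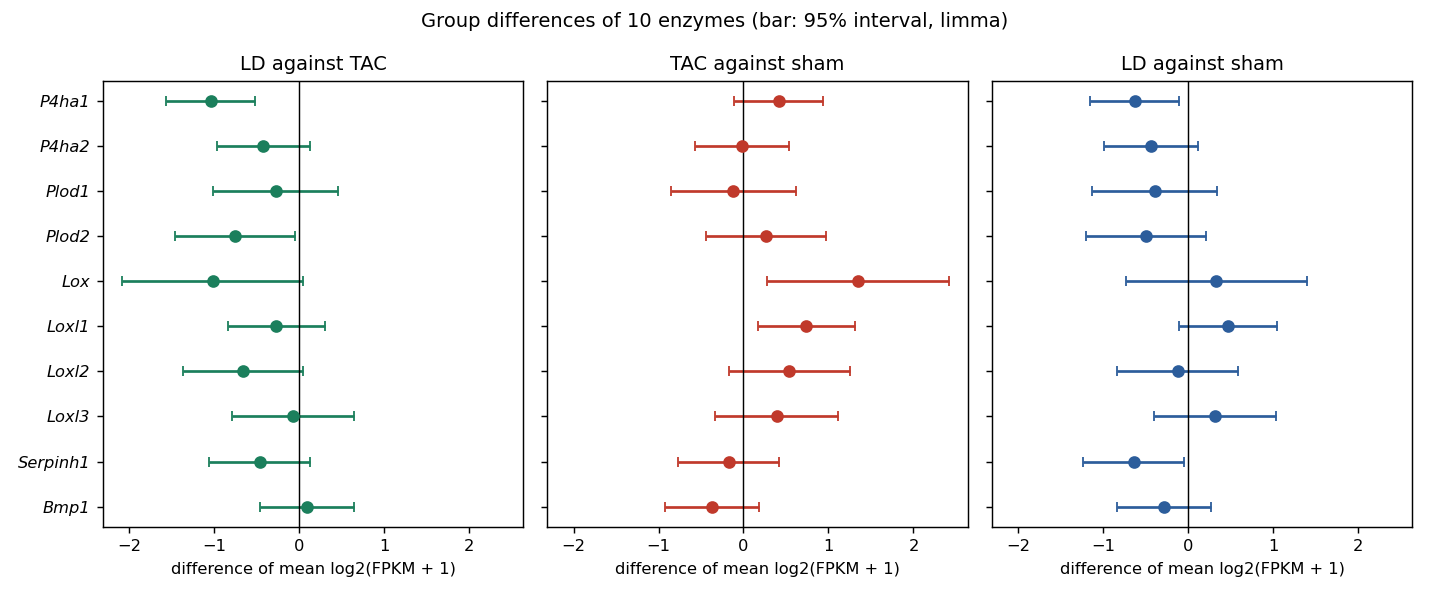
Differences of mean log2(FPKM + 1) for the 10 genes in LD against TAC, TAC against sham and LD against sham (horizontal axes), with points for limma's estimate and bars for its 95% interval. In LD against TAC the intervals of P4ha1 (-1.56 to -0.52) and Plod2 (-1.46 to -0.05) lie below 0, and in TAC against sham those of Lox (0.28 to 2.42) and Loxl1 (0.17 to 1.31) lie above 0.

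P4ha1 encodes the alpha subunit of the most widely expressed collagen prolyl 4-hydroxylase, and lies on the plus strand at chr10:59323296-59373304 (GRCm38). It had 8.44, 12.4 and 10.9 FPKM in LD replicates 1, 2 and 3, against 22.9, 20.8 and 24.3 in TAC and 20.5, 14.1 and 16.05 in sham. Every LD heart was below every sham heart, and every sham heart below every TAC heart as deposited, with overlap of sham and TAC after rescaling to equal sums. The share of all genes with this order was not counted. The LD mean of 10.6 ± 2.01 FPKM (SD, n = 3) was 46.8% of the TAC mean of 22.7 ± 1.76, and 62.7% of the sham mean of 16.9 ± 3.28. The log2 difference of LD against TAC was -1.04 ± 0.24 (SE). Its unadjusted p in limma was the 23rd smallest of 11380 genes, and its Benjamini-Hochberg adjusted p = 0.366. Over 21 alternative fits it stayed between -1.15 and -0.85, with adjusted p from 0.175 to 0.9995, and it was -1.06 within the libraries of even and odd counts. TAC against sham differed by 0.42 ± 0.24 (adjusted p = 0.974 in limma) and LD against sham by -0.63 ± 0.24 (adjusted p = 0.875). The last of these was -0.40 when the 3 LD libraries were set against sham replicate 2 alone, the sham library with even and odd counts.

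P4ha2 encodes the other broadly expressed alpha subunit, on the plus strand at chr11:54100095-54131665, and either subunit joins P4hb to form the enzyme. Its levels were 27.0, 25.7 and 20.7 FPKM in LD, 38.1, 37.3 and 24.9 in TAC and 26.6, 32.9 and 42.0 in sham. The LD hearts lay at the low end, but TAC replicate 3 was below LD replicates 1 and 2, so the groups overlapped. LD against TAC differed by -0.42 ± 0.26 (adjusted p = 0.625 in limma), or -0.63 within the libraries of even and odd counts, and TAC against sham by -0.02 ± 0.26, which ranged from -0.17 to 0.17 over 21 alternative fits. The third family member, P4ha3, had at most 0.389 FPKM (7 counts) in any library and was not tested. The family as a whole summed to 35.2 ± 3.33 FPKM in LD (31.6 to 38.2), against 56.3 ± 6.28 in TAC (49.2 to 61.3) and 51.0 ± 6.47 in sham (47.2 to 58.5). Each LD sum was below each of the other 6, also under both other scalings. P4ha1 made up 30.2% of the sum in LD (23.6% to 34.6%), 40.8% in TAC (35.7% to 49.4%) and 33.6% in sham (27.4% to 43.4%). These sums and shares depend on the length used for P4ha2, recovered as 2349 bases against 6239 annotated exon bases.

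Both prolyl hydroxylase genes are known to respond to hypoxia, and the 250 bases before their RefSeq starts (GRCm38.p6) are shown for that reason, with the core of the hypoxia-response element, ACGTG or its reverse complement CACGT, in capitals. The window of P4ha1 is chr10:59323046-59323295 on the plus strand and that of P4ha2 is chr11:54100674-54100923 on the plus strand, each printed 5′ to 3′ and ending 1 base before the RefSeq start. The P4ha2 window lies inside the gene as GENCODE gives it, which begins at base 54100095, so it is not upstream of that start.
P4ha1: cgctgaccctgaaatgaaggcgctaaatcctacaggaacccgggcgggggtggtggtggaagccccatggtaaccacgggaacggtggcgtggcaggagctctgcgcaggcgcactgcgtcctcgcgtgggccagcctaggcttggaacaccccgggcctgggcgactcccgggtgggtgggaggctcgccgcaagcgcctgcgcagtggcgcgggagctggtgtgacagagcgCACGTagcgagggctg
P4ha2: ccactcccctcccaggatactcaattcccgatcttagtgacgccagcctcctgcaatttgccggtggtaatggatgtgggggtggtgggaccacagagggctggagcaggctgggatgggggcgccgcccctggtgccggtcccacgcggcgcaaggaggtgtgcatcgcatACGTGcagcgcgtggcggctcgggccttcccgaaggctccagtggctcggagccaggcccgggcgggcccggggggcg
The match began at base -16 in P4ha1 and at base -78 in P4ha2, counted from the RefSeq start. Promoter windows were at hand for 4 of the 10 genes (P4ha1, P4ha2, Plod1 and Serpinh1), and the motif was found in 3 of them, all but Plod1. It occurred on either strand in 16.6% of 32851 RefSeq windows of this length and in 23.0% of the 9178 windows with at least 60% G and C. The variant GCGTG occurred at 2 places in the window of P4ha1 and of P4ha2, and was present in 28.2% of all windows and 53.9% of the GC-rich ones. None of the matches was part of the palindrome CACGTG. A match describes the letters of the window and is not evidence of binding.

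The lysyl hydroxylases differ in substrate, Plod1 acting mainly on the helix and Plod2 on the telopeptides, where hydroxylation decides the chemistry of the crosslink. Plod2 (plus strand, chr9:92542223-92608428) had 12.3, 6.41 and 5.40 FPKM in LD, against 10.1, 11.6 and 20.9 in TAC and 11.005, 12.7 and 9.66 in sham. LD replicates 2 and 3 were the lowest of the 9 hearts and TAC replicate 3 the highest, while LD replicate 1 lay among the TAC hearts. LD against TAC differed by -0.76 ± 0.33 (adjusted p = 0.547 in limma), by -0.46 without TAC replicate 3, by -0.25 without TAC replicate 3 and LD replicate 3, and by -0.37 within the libraries of even and odd counts. The sham hearts had a mean of 11.1 ± 1.54 FPKM, and TAC against sham differed by 0.26 ± 0.33, or -0.03 without TAC replicate 3. Plod1 (minus strand, chr4:147909753-147936767) ranged from 3.91 to 5.64 FPKM in LD, 3.00 to 9.20 in TAC and 5.31 to 8.57 in sham, with log2 differences of -0.27 ± 0.34 in LD against TAC and -0.12 ± 0.34 in TAC against sham. Over 21 alternative fits the first ranged from -0.64 to 0.47, and the second from -0.43 (no TAC replicate 3) to 0.25 (no TAC replicate 1). Plod3, the family member with glycosyltransferase activity as well, had the highest mean of the 3, at 17.7 ± 2.87 FPKM in LD, 17.8 ± 2.46 in TAC and 16.4 ± 5.15 in sham, and LD against TAC differed by -0.01 ± 0.26. Plod3 made up 58.5% of the family's summed FPKM in LD (47.4% to 65.7%), 48.1% in TAC (35.5% to 61.2%) and 47.7% in sham (38.0% to 59.5%), with overlap of the groups.

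Serpinh1 encodes HSP47, the chaperone of the endoplasmic reticulum that binds folded procollagen, and lies on the minus strand at chr7:99345376-99353239. It had 49.1, 46.4 and 63.5 FPKM in LD, against 55.8, 90.7 and 75.5 in TAC and 119, 73.8 and 62.9 in sham. LD replicates 1 and 2 were the lowest of the 9 hearts, and LD replicate 3 lay between TAC replicates 1 and 3 and just above sham replicate 3. LD was at 71.6% of the TAC mean and 62.1% of the sham mean, with log2 differences of -0.46 ± 0.28 (adjusted p = 0.619 in limma) and -0.64 ± 0.28 (adjusted p = 0.875). The difference from sham was -0.37 without sham replicate 1, and the difference from TAC was -0.09 within the libraries of even and odd counts. TAC against sham differed by -0.17 ± 0.28, with a range of -0.36 to 0.09 over 21 alternative fits, and was above 0 when sham replicate 1 (0.09) or TAC replicate 1 (0.01) was left out. The 250 bases before its RefSeq start are shown for comparison with the prolyl hydroxylase windows, at chr7:99353240-99353489 on the minus strand, with 1 match beginning at base -171 and no GCGTG.
Serpinh1: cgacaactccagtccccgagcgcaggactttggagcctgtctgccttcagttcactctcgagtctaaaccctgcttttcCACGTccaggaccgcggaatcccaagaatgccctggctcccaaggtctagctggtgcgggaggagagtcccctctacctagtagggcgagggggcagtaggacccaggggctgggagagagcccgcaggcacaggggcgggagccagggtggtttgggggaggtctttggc

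Bmp1 (minus strand, chr14:70474558-70520234), the procollagen C-proteinase that also cleaves the Lox proenzyme, was the 1 member with a higher mean in LD than in TAC. It ranged from 17.8 to 25.3 FPKM in LD, from 15.8 to 23.5 in TAC and from 21.1 to 30.8 in sham. The groups overlapped in each comparison. LD against TAC differed by 0.10 ± 0.26, with a range of -0.08 to 0.24 over 21 alternative fits that included -0.01 after rescaling to equal sums, and TAC against sham by -0.37 ± 0.26 (adjusted p = 0.991 in limma). The second difference ranged from -0.63 to -0.20 over the alternatives, the last of these with TAC replicate 2 left out. The related proteinase genes Tll1 and Tll2 had at most 0.119 and 0.142 FPKM in any library, and Tll2 was listed at 0 in all 3 TAC libraries.

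Lox, the founding lysyl oxidase (minus strand, chr18:52516067-52529867), was low and even in sham and uneven in TAC. It had 3.57, 2.67 and 0.921 FPKM in LD, 1.66, 5.99 and 13.3 in TAC and 1.45, 1.63 and 1.497 in sham, from 69 to 588 counts. TAC replicate 1, at 1.66, was only just above sham replicate 2 and overlapped the sham range after median-of-ratios scaling, while TAC replicate 3 was the highest of all. The TAC mean was 4.57 times the sham mean, and TAC against sham differed by 1.35 ± 0.50 on the log2 scale (adjusted p = 0.793 in limma). Left without TAC replicate 3 this difference was 0.77, and without TAC replicate 1 it was 1.98. It was 2.01 within the 4 libraries of mostly even counts (TAC replicates 2 and 3, sham replicates 1 and 3). LD against TAC differed by -1.02 ± 0.50 (adjusted p = 0.571). That value was -0.44 without TAC replicate 3, -0.65 without LD replicate 3 and -1.65 without TAC replicate 1, and it was 0.26 when the 3 LD libraries were set against TAC replicate 1 alone, the TAC library with even and odd counts. LD against sham differed by 0.33 ± 0.50, with LD replicates 1 and 2 above and LD replicate 3 below the sham hearts.

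Loxl1, the lysyl oxidase best known for elastic fibres, was the most abundant enzyme of its family. It lies on the minus strand at chr9:58287738-58313186 and had 20.3, 16.2 and 26.9 FPKM in LD, 18.4, 32.1 and 26.7 in TAC and 15.2, 13.9 and 14.8 in sham. All 6 hearts from operated mice, with or without decoction, were above all 3 sham hearts on the deposited scale, but rescaling to equal sums made LD and sham overlap. TAC against sham differed by 0.74 ± 0.27 (adjusted p = 0.789 in limma), with a range of 0.57 to 0.95 over 21 alternative fits and 0.92 within the libraries of mostly even counts. LD against sham differed by 0.47 ± 0.27 (adjusted p = 0.875) and was 0.29 without LD replicate 3. LD against TAC differed by -0.27 ± 0.27, with a 95% interval from -0.84 to 0.31, and ranged from -0.63 to 0.16 over the alternatives.

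Loxl2, which oxidises collagen IV and is known from fibrotic tissue, lies on the plus strand at chr14:69609068-69695834 and was the lowest of the 10 genes. It had 1.77, 2.05 and 1.39 FPKM in LD, against 2.203, 3.42 and 4.61 in TAC and 2.62, 0.965 and 2.66 in sham. The LD hearts were below every TAC heart, LD replicate 2 only just below TAC replicate 1, and the sham hearts spread across both. LD against TAC differed by -0.66 ± 0.33 (adjusted p = 0.579 in limma), or -0.15 with a term for the kind of library, and TAC against sham by 0.54 ± 0.33. The TAC against sham value ranged from 0.24 (sham replicate 2 left out) to 0.78 over 20 alternative fits. Loxl3 (plus strand, chr6:83034173-83052562) ranged from 2.95 to 7.28 FPKM in LD, 3.69 to 7.30 in TAC and 2.57 to 4.38 in sham. Its differences were -0.07 ± 0.34 in LD against TAC, with a range of -0.33 to 0.31 over 20 alternative fits, and 0.39 ± 0.34 in TAC against sham. The second was 0.17 if TAC replicate 3 was left out and 0.20 if sham replicate 2 was, with a range of 0.17 to 0.58. Of its annotated exon bases, 535 (11.6%) overlap Htra2 on the other strand, and since no step that keeps the strand is named for these libraries, reads of the pair cannot be told apart. Loxl4 had at most 0.545 FPKM.

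**Figure D3:**
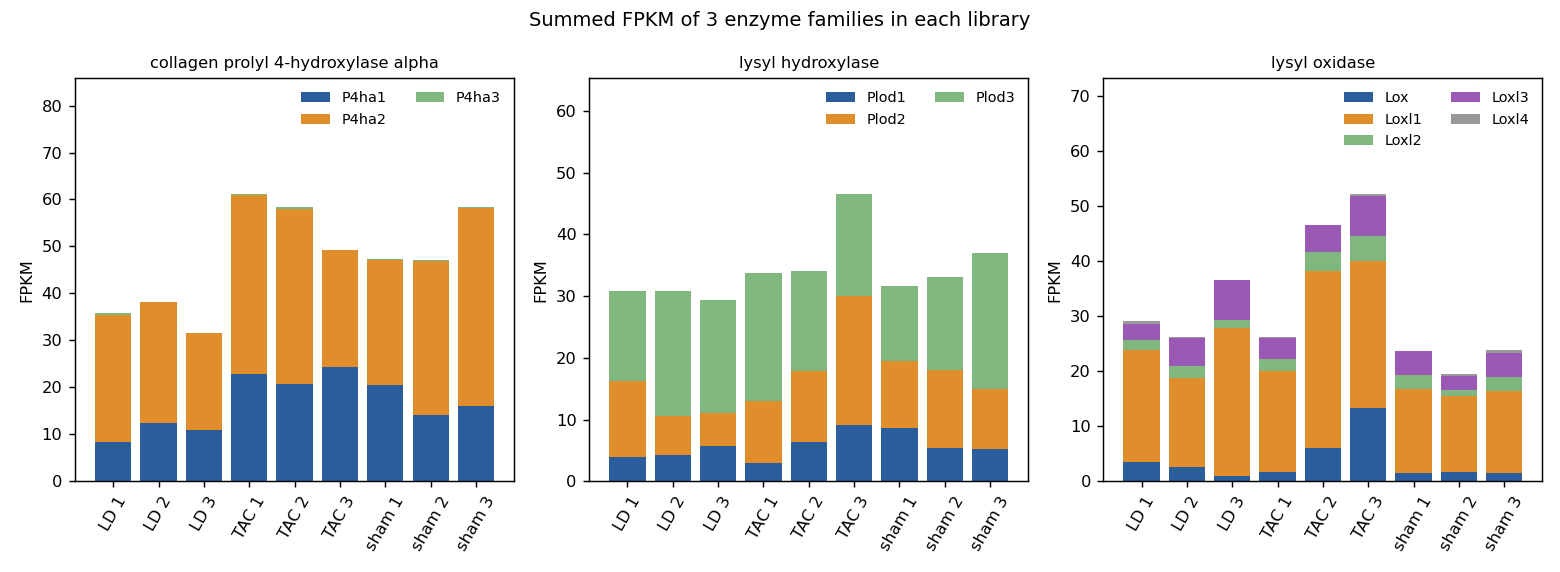
Summed FPKM of the prolyl 4-hydroxylase alpha subunits, the lysyl hydroxylases and the lysyl oxidases (vertical axes) in each of the 9 libraries, with the stacked parts of each bar giving the single genes. The prolyl hydroxylase bars of LD replicates 1 to 3 (31.6 to 38.2) are the lowest, and the tallest lysyl oxidase bar is that of TAC replicate 3 (52.3).

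The lysyl oxidases together summed to 30.6 ± 5.36 FPKM in LD, 41.6 ± 13.7 in TAC and 22.3 ± 2.45 in sham. All LD sums (26.1 to 36.6) and all TAC sums (26.2 to 52.3) were above all sham sums (19.5 to 23.8). After rescaling to equal sums the lowest LD sum, 24.39, was just below the highest sham sum, 24.43. Loxl1 made up 68.4% of the sum in LD, 63.5% in TAC and 66.0% in sham, while Lox made up 8.33% in LD, 14.9% in TAC and 6.94% in sham. Fibroblast markers moved with these values. Of 20 fibroblast markers, 19 were above 0 in TAC against sham (9 higher and 0 lower by unadjusted p, median 0.54), and so were 14 of 14 tested markers of activated fibroblasts (11 higher, 0 lower, median 1.58). Of all genes, 2.85% were higher and 2.58% lower by unadjusted p. The marker lists were chosen with earlier results of these data known, so their counts are a description and not a test. The summed FPKM of the 20 fibroblast markers was 1553 to 2200 in LD, 2013 to 3092 in TAC and 1311 to 1534 in sham, and no marker of that list was at 0. For the 16 activated markers it was 377 to 488 in LD, 378 to 615 in TAC and 226 to 269 in sham, with Cthrc1 at 0 in 6 libraries. In LD against TAC, 17 of 20 fibroblast markers were below 0 (13 after median-of-ratios scaling), 6 of them by unadjusted p, with a median of -0.47, and so were 10 of 14 activated markers (2 by unadjusted p, median -0.26). By unadjusted p, 6.31% of all genes were lower. In TAC replicate 1, the TAC library with even and odd counts, the mean log2 value of the fibroblast markers was 0.26 above the sham mean. In LD it was 0.16 to 0.30 above. For the activated markers it was 0.82 above in that TAC library and 0.85 to 1.37 above in LD. The part of these markers in the results for the lysyl oxidases and for P4ha1 was not tested.

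The substrates of the enzymes were compared in the same way. The 7 expressed fibrillar collagen genes (of 11 listed) all had lower means in LD than in TAC, with a median log2 difference of -0.54. Of these, 1 had an unadjusted p under 0.05 in limma, Col5a3 (-0.87 ± 0.34), where 6.31% of all genes were lower. All 7 had higher means in TAC than in sham, with a median of 0.36 and no unadjusted p under 0.05. In both comparisons the groups overlapped for each of the 7 genes. The mean log2 value of the 7 genes, relative to the sham mean, was -0.10 in TAC replicate 1, the TAC library with even and odd counts. That value lay within the LD range of -0.37 to 0.07. Only TAC replicates 2 and 3, of mostly even counts, were above every LD heart on this mean, at 0.15 and 1.13. Col1a2, a chain of collagen I, averaged 23.5 ± 1.85 FPKM in LD, 43.2 ± 22.7 in TAC and 25.3 ± 6.48 in sham, and TAC replicate 3 had the highest collagen mean of all libraries. Of 15 tested elastin and microfibril genes, 13 were below 0 in LD against TAC (median -0.39, and 11 after median-of-ratios scaling), with Eln, elastin itself, at -0.94 ± 0.28 and no overlap. Set against sham, TAC had 14 of the 15 above 0 (6 higher by unadjusted p, beside 2.85% of all genes, median 0.45), among them Mfap4 at 1.41 ± 0.31 and Ltbp2 at 1.68 ± 0.41. Among the 15, Ltbp2 is also on the list of activated fibroblast markers, and Mfap5 on that of fibroblast markers.

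To set each enzyme against its substrate within a library, the mean log2 value of the 7 fibrillar collagens was subtracted from that of the enzyme. On this scale LD against TAC had 6 genes above and 4 below 0, and no member's groups were apart. P4ha1 had a difference of -0.49 (exact permutation p = 0.4, two-sided, and 0.75 after Benjamini-Hochberg adjustment over 30 such tests), with TAC replicate 3 at -0.40, below LD replicates 2 (0.18) and 3 (-0.20). TAC against sham had 4 genes above and 6 below 0, and Lox had the largest difference, 0.95 (exact permutation p = 0.2, adjusted 0.75). In LD against sham 4 were above and 6 below 0. Loxl1 was higher relative to collagen in all 3 LD hearts than in any sham heart, with a difference of 0.63 and an exact permutation p = 0.1, the smallest that 3 against 3 allows (adjusted 0.75).

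**Figure D4:**
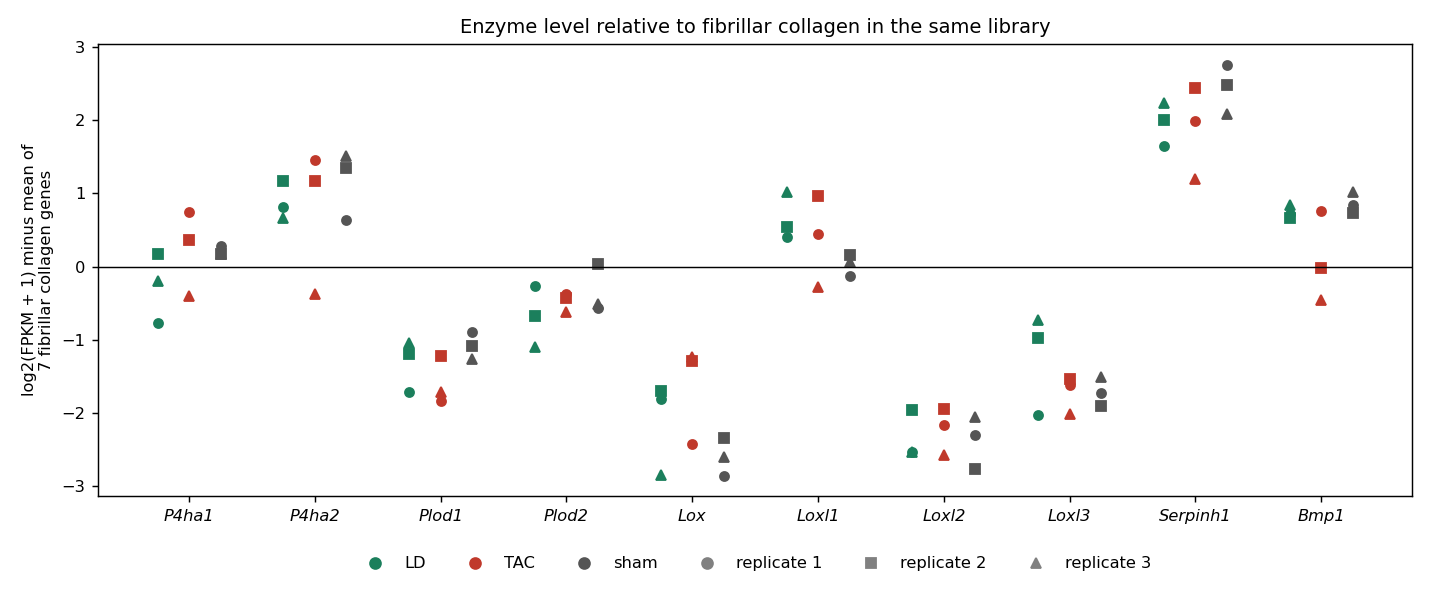
Log2(FPKM + 1) of each enzyme minus the mean over 7 fibrillar collagen genes in the same library (vertical axis), with colours for LD, TAC and sham and markers for replicates 1, 2 and 3. Loxl1 in LD lies above all sham hearts, and TAC replicate 3, the library richest in collagen, is the lowest TAC heart for every gene but Plod1 and Lox.

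Partners of the enzymes in the endoplasmic reticulum were mixed. Of 15 tested folding and modification partners, 9 were below 0 in LD against TAC (0 higher and 1 lower by unadjusted p, beside 2.51% and 6.31% of all genes, median -0.16). The 1 was Crtap, a subunit of the prolyl 3-hydroxylase complex, at 5.11, 3.71 and 3.82 FPKM in LD, 8.82, 13.6 and 8.20 in TAC and 7.25, 5.46 and 6.35 in sham. As for P4ha1 on the deposited scale, every LD heart was below every sham heart and every sham heart below every TAC heart. After rescaling to equal sums this order held for Crtap, while sham and TAC overlapped for P4ha1. The share of all genes with this order was not counted. Without overlap, LD was lower than TAC for 8.14% of genes and lower than sham for 8.76%. TAC was higher than sham without overlap for 5.22%. Crtap differed by -1.08 ± 0.27 in LD against TAC (adjusted p = 0.398 in limma) and by 0.58 ± 0.27 in TAC against sham. TAC had 10 of the 15 partners above its sham level (1 higher and 2 lower by unadjusted p, beside 2.85% and 2.58% of all genes, median 0.09). The lower ones were Fkbp10 (-0.91 ± 0.42), a prolyl isomerase needed for telopeptide lysyl hydroxylation, and P3h4 (-0.59 ± 0.26), a partner of Plod1 without known enzyme activity. For both the groups overlapped. Fkbp10 had 27.3, 13.8 and 5.83 FPKM in TAC, against 20.9 to 31.7 in sham. P3h4 had 34.1, 20.9 and 16.8 in TAC, against 30.1 to 38.2 in sham. Of 11 tested genes for procollagen export and propeptide removal, 10 were below 0 in LD against TAC (median -0.25, and 8 after median-of-ratios scaling), with the coat protein gene Sec23a at -0.85 ± 0.29. TAC against sham had 8 of the 11 above 0 (median 0.19), led by Pcolce2, an enhancer of the procollagen C-proteinase, at 1.11 ± 0.25 with 19.6 ± 2.78 FPKM in TAC and 8.58 ± 1.73 in sham.

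Genes of the unfolded protein response, which tracks the load on the endoplasmic reticulum, were below 0 for 18 of 19 members in LD against TAC (0 higher and 2 lower by unadjusted p, beside 2.51% and 6.31% of all genes, median -0.40), led by Manf (-0.93 ± 0.30) and Sel1l (-0.97 ± 0.33). Their summed FPKM was 511 to 540 in LD, 609 to 738 in TAC and 577 to 671 in sham. After median-of-ratios scaling these sums overlapped, at 497 to 631 in LD, 585 to 728 in TAC and 555 to 657 in sham. Between TAC and sham, 13 of 19 were above 0 (median 0.10). Of 21 tested hypoxia-inducible genes, 12 were above and 9 below 0 in LD against TAC, with a median of 0.04 that was -0.06 after rescaling to equal sums. By unadjusted p, 4 of them were lower and 0 higher, beside 6.31% and 2.51% of all genes: Mxi1 (-0.94 ± 0.27), the oxygen-sensing hydroxylase gene Egln3 (-0.90 ± 0.33), Ero1l (-0.97 ± 0.37) and Ankrd37 (-1.23 ± 0.47). The hypoxia list had a median of 0.05 in TAC against sham, with no unadjusted p under 0.05. Cardiomyocyte markers were above 0 for 11 of 15 in LD against TAC (5 higher and 0 lower by unadjusted p, beside 2.51% and 6.31% of all genes, median 0.23), for 15 after median-of-ratios scaling and for 9 after rescaling to equal sums. They summed to 66349 to 98684 FPKM in LD, 51462 to 67425 in TAC and 66529 to 71826 in sham. Their part in the values of the 10 genes was not tested. Other cell types had median differences in LD against TAC of -0.18 for 11 endothelial, 0.003 for 12 smooth muscle and pericyte (-0.10 after rescaling to equal sums), -0.37 for 12 macrophage and -0.31 for 4 tested valve and chondrogenic markers.

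Across the 9 libraries, where the values of a library share its depth and scaling, the members varied in loose sets. Group means were not taken off here, so the r values hold the group differences given above and are not separate from them. How many of all genes reach a given r with the mean of a list was not counted. Plod1 and Serpinh1 varied most alike (Pearson r = 0.785, Spearman rho = 0.867, n = 9), with r = 0.889 without TAC replicate 3 and LD replicate 3. Lox went with Loxl2 (r = 0.738, rho = 0.483) and with Plod2 (r = 0.719, rho = 0.617), but without those 2 libraries r was 0.374 and 0.099, so these rest on them. Lox and Loxl1 had r = 0.569 over 9 libraries and 0.91 over the 7. P4ha1 and P4ha2 had r = 0.391. Loxl1 followed the mean of the activated fibroblast markers (r = 0.91, rho = 0.917, and 0.88 over 7 libraries), and P4ha1 followed the mean of the unfolded protein response genes (r = 0.848, rho = 0.817, and 0.811 over 7). P4ha1 ran opposite to the mean of the cardiomyocyte markers (r = -0.626, rho = -0.8, and -0.916 over 7). With the mean of the hypoxia-inducible genes, P4ha1 had r = 0.557 (rho = 0.517, and 0.346 over 7) and P4ha2 had r = -0.034 (rho = -0.033, and 0.25 over 7). On the same list, Plod1 had r = 0.801 (rho = 0.833, and 0.727 over 7) and Plod2 had 0.771 (rho = 0.667, and 0.616 over 7). Serpinh1 had 0.611 (rho = 0.85, and 0.79 over 7) and Lox had 0.684 (rho = 0.267, and 0.156 over 7). The remaining members lay between -0.08 (Bmp1) and 0.527 (Loxl2). Serpinh1 followed the mean of the folding partners (r = 0.822, rho = 0.7, and 0.846 over 7) and that of the unfolded protein response genes (r = 0.776, rho = 0.867, and 0.8 over 7). Both lists hold Hspa5, so these values are not separate observations. Of 11379 other tested genes, those most like P4ha1 were Fam78b (r = 0.972), Col6a2 (0.941) and Tbc1d12 (0.935), and those most like Loxl1 were Dkk3 (0.94), Tmem159 (0.937) and Igfbp6 (0.923). The genes nearest the others were Sccpdh for P4ha2, C1galt1c1 for Plod1, Rnft1 for Plod2, Klhl34 for Lox, Atp6v1b2 for Loxl2, Ly86 for Loxl3, Ank1 for Serpinh1 and Cdk2 for Bmp1, at r from 0.94 to 0.978. Of those 11379 genes, 218 had r over 0.9 with Plod2, against 4 to 36 for the other members.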

How the data were processed

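The deposited table holds FPKM values made by the authors, 9 columns each matched to 1 sample by name. Per the submitters' processing notes, the tools were CASAVA 1.8, fastp 0.20.0, HISAT2 2.1.0, Cufflinks 2.2.1, HTSeq 0.7.2 and DESeq on GRCm38; which of them made a given value, and with which annotation, is not given in the sources used here. Per the labels' protocols, RNA came from 3 biological repeats, and no step that marks the strand is named. The p-values measure the spread between these samples.

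Whole counts and library totals were recovered from the FPKM steps: all 16262 genes above 0 came out whole within 0.001. Values were analysed as log2(FPKM + 1). The 11380 genes with 3 or more libraries at an FPKM of 1 or above entered 1 limma 3.58.1 fit in R 4.3.3 with 1 mean per group (residual degrees of freedom: 6), a trended empirical Bayes step, two-sided moderated tests and Benjamini-Hochberg adjustment over all tested genes at 0.05. The fit was tested on simulated data. Enzyme-to-collagen differences used exact permutation tests. Errors of differences are limma's standard errors, and errors of FPKM are SDs.

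Named were the 10 members, the other members of their families, up to 4 genes of smallest p of each list, the 3 genes most alike each member and 3 tissue markers. The members and lists were chosen with earlier results of these data known. Coordinates are from GENCODE M21, and promoters from RefSeq (GRCm38.p6); those of the other 6 members, and Lox sequence, are not used here. Replicate numbers did not pair the libraries. After the group mean of each gene was taken off, same-numbered libraries of different groups correlated between -0.236 and 0.146. Those of different numbers correlated between -0.269 and 0.370. Pseudocount, filter, scaling, fit, weights and libraries were varied in turn; the term for the kind of counting and the fits within each kind were chosen after seeing the data.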

Additional observations from a re-analysis of the deposited data

How the results depend on the processing

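No member passed an adjusted p under 0.05 in limma under any alternative in the 3 comparisons (621 values, of which 588 kept their direction and 33 did not), and the lowest adjusted p was 0.0716 (Serpinh1, LD against sham). Some of the 588 could not change direction. A changed filter, a fit of the 2 groups alone, a replicate block or a library left out of the group not compared leaves a difference as it was. So does the term for the kind of counting in TAC against sham. The median difference of the members in LD against TAC was -0.18 with a term for the kind of counting and -0.081 within the libraries of even and odd counts. In LD against sham it was -0.0597 and -0.0692 under the same changes, and -0.43 to -0.19 when each library was left out in turn. In TAC against sham it was -0.0184, on the other side of 0, with the filter at a mean FPKM of at least 5, which left 7 members. Counts of all genes called, 0 as reported, were as follows. In TAC against sham they were 2 with that filter, 9 with library weights, 4 with voom, 6 within the libraries of mostly even counts and 0 to 13 leaving out 1 library (13 without TAC replicate 1, and 1 without TAC replicate 2 or sham replicate 3). In LD against sham they were 3 with the filter, 10 in a fit of the 2 groups alone, 135 with library weights, 3 with voom and 0 to 8 leaving out 1 library (8, 2 and 1 without TAC replicates 1, 2 and 3, and 1 without sham replicate 3). In the F test they were 2, 44 and 3 with the filter, weights and voom, and 0 to 8 leaving out 1 library (8 and 1 without TAC replicates 1 and 2, and 1 without sham replicate 3). A replicate block gave 0 calls in each comparison. With group means taken off, 1 of 9 libraries correlated best with its own number. A median-of-ratios scaling put the median of all genes in LD against TAC at 0.01, and a rescaling to equal sums put it at -0.19, beside -0.10 as reported. The causes were not tested. Lox and Loxl2 had as few as 69 and 73 counts in a library, the lowest of the members.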
